A study of Mus musculus with 90 samples.

Results

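Translation initiation and elongation factors are the proteins that bring ribosomes to mRNAs and move them along. Their genes were followed here by mRNA level in single mouse oocytes and early embryos. The members are the genes whose symbols begin with Eif2 to Eif6, Eef1 or Eef2, together with Eif1, Eif1b, Eif1ad and the termination factors Etf1 and Gspt1. Eif4e1b, Eif4enif1, Eef1e1 and pseudogenes were left out. This rule took 62 of the 24422 genes in the count table, and 61 of them passed the filter on low counts, which left 16511 genes to test. Eef1a2 did not pass.

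The study deposited 90 libraries of single CD-1 oocytes or embryos, 16 MII oocytes, 14 2-cell (2c) embryos and 15 8-cell (8c) embryos for each genotype, and 78 entered the comparisons. MII oocytes came 21 to 23 h after hCG from superovulated wildtype (WT) females or females lacking Plag1, a zinc finger transcription factor. Embryos of 45 to 47 h (2c) and 71 to 73 h (8c) came from WT or knockout (KO) females mated with WT males, and were cultured from the zygote. Embryos of KO mothers are called matPlag1KO, and oocytes of KO females carry the same name here. By the crosses, these embryos carried a WT paternal Plag1 allele and lacked the maternal one, so they model the loss of the maternal gene and not of the gene in the embryo. The kept libraries numbered 16 WT and 14 matPlag1KO at MII, 11 and 11 at 2c, and 15 and 11 at 8c. Donor females were not given per library, so embryos of one female may share a group, and p-values measure the spread between libraries.

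In initiation, eIF2 carries the initiator methionyl-tRNA to the small ribosomal subunit as a complex with GTP, and eIF2B exchanges its GDP for GTP afterwards. The multi-subunit eIF3 holds this assembly on the small subunit, and the eIF4 proteins bind the mRNA cap, unwind the 5′ leader and recruit the complex, until eIF1, eIF5 and eIF5B help to set the start codon and join the subunits. Elongation then uses eEF1A to deliver aminoacyl-tRNA, the eEF1B proteins to recharge eEF1A, and eEF2 to translocate the ribosome. The mouse oocyte is transcriptionally silent at MII and lives on stored maternal mRNA, and the embryo's own genome is switched on chiefly at the 2-cell stage, so mRNAs of the translation machinery pass from maternal to embryonic supply over these stages.

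Gene counts of the kept libraries ranged from 92475 to 2502421, and 2c libraries were the shallowest, with group medians of 148473 in WT and 163626 in matPlag1KO. Plag1 itself had a count in 16 of 16 WT and 3 of 14 matPlag1KO oocytes, at means of 32.8 and 0.457 CPM (counts scaled to a common library total). At 2c the order was the opposite, with a count in 1 of 11 libraries labelled WT and 9 of 11 labelled matPlag1KO (0.392 against 35.9 CPM). Since matPlag1KO embryos carry a WT paternal allele, Plag1 does not check the labels at 2c. The 2-cell markers Zscan4c, Zscan4d and Zfp352 (of 6 listed) separated 2c from the other stages. They summed to at most 11.6 CPM in any MII or 8c library and at least 78.1 CPM in every 2c library. Zscan4f, Tcstv1 and Tcstv3 had no count in any group. Oocyte markers had their highest group medians at MII and 8-cell markers at 8c, but both overlapped with 2c. Oocyte markers reached 2052 CPM in WT and 5964 in matPlag1KO 2c libraries, against lowest oocytes of 1839 and 2068. For 8-cell markers, 2c libraries reached 345 and 310 CPM, and the lowest 8c libraries were at 205 and 198. Genes of cumulus and granulosa cells, which could cling to an oocyte, summed to at most 36.2 CPM in any library. Of the 12 listed, 6 had counts in each oocyte group, with the cumulus gene Has2 among them in matPlag1KO oocytes. Ptgs2, Tnfaip6, Ptx3, Amh and Foxl2 were at 0 in both oocyte groups.

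In WT oocytes the factor mRNAs together took a mean of 10314 ± 1119 CPM (SD, n = 16), and 5 genes led them. Eif2s2, the beta subunit of eIF2, was first at 2095 ± 750 CPM. Eif1b, a paralog of the start codon factor Eif1, followed at 982 ± 706, then the mRNA helicase Eif4a1 at 810 ± 242, the eIF2B alpha subunit Eif2b1 at 801 ± 213 and the elongation factor Eef1a1 at 761 ± 681. The last 4 lay within the spread of each other. These counts are taken at transcript 5′ ends, where a molecule gives a single tag whatever its length, so CPM were compared between genes without division by length.

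At 2c the sum was 9325 ± 1246 CPM (n = 11), and the order differed: Eef1a1 (1077 ± 380) and Eif2s2 (1042 ± 357) stood together at the top. They were followed by the cap-binding protein Eif4e at 756 ± 111, by Eif6, which keeps free large subunits from joining too early, at 471 ± 210, and by Eif4a1 at 427 ± 87.6 CPM. At 8c the sum reached 29446 ± 4977 CPM (n = 15), and its lowest library (22338 CPM) lay above the highest WT oocyte (12460 CPM) and the highest WT 2c embryo (10891 CPM). Eif2s2 was again highest at 4032 ± 853 CPM, and Eif4a1 stood at 1845 ± 992. The other 3 leading genes now all served elongation: Eef1b2, which recharges eEF1A, at 2893 ± 634, Eef1a1 at 2867 ± 797 and Eef2 at 2156 ± 1199 CPM. A CPM level is a share of the mRNA of a whole oocyte or embryo and gives no amount per embryo or per cell. Levels per spike-in RNA, used below, are per whole oocyte or embryo. In those the number of cells and the mRNA per cell cannot be told apart.

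**Figure D1:**
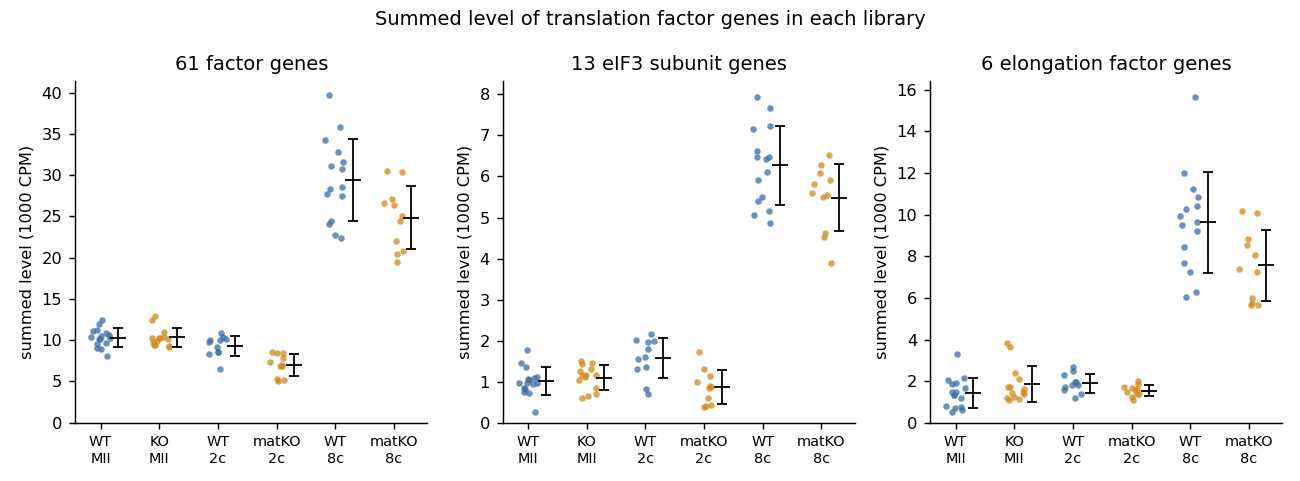
Summed level (in units of 1000 CPM, linear axis from 0) of the factor genes, of the 13 eIF3 genes and of the elongation genes, per library, with the group mean and SD. Eif3j2 is left out because it shares its locus with Eif3j1. The panel titles count 61 of the 62 factor genes and 6 elongation genes. Eef1a2, which did not pass the filter on low counts, is in these titles but not in the plotted sums. WT 8c libraries sit between 22338 and 39681 CPM for all factors, above every oocyte and 2c embryo, and matPlag1KO 2c embryos have the lowest group mean, 7007 CPM.

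From MII to 2c more factor mRNAs fell than rose per embryo, and so did the mRNAs of all genes tested, in similar shares. With the spike-in RNA of each library as its size, 29 of 61 members fell and 8 rose in WT, against 51.3% and 14.1% of all genes tested (quasi-likelihood test of edgeR, adjusted p under 0.05). The median log2 fold change was -0.92 over the members and -1.46 over all genes. Relative to the rest of the mRNA, which TMM scaling measures, the split turned to 30 higher and 13 lower, against 27.5% and 23.1% of all genes, with medians of 0.67 and -0.03. Under both scalings 8 members were higher and 13 were lower, and 9 that fell per spike-in had the opposite sign under TMM, among them Eef1a1, Eif4e and Eif5a.

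The 4 members that fell most on spike-in scaling were Eef2k, Eif1b, Eif2b1 and Eif4e3. Eef2k, the kinase that inhibits eEF2, went from 33 ± 42 to 1.15 ± 1.29 counts per 1000 spike-in counts, a log2 fold change of -4.85 (SE 0.69, adjusted p = 4.882e-09). Eif1b fell by 4.07 on the log2 scale, from 41.3 ± 22.0 to 2.46 ± 1.49 per 1000 spike-in counts. For Eif2b1 the fall was 3.95 on that scale (43.6 ± 28.8 to 2.81 ± 0.981), and for Eif4e3, a divergent cap-binding paralog of Eif4e, the log2 fold change was -3.62 (8.95 ± 10.1 to 0.715 ± 0.534). All 4 were also lower under TMM.

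Of the called members that reached 20 CPM at MII or 2c, the 4 that rose most were at 7.75 CPM or less in WT oocytes. The eIF3 subunit gene Eif3g rose by a log2 fold change of 2.25, from 0.607 ± 1.08 to 2.99 ± 2.22 per 1000 spike-in counts, and Eif3f by 2.21, from 0.0745 ± 0.153 to 0.403 ± 0.46. Eef1akmt1, a lysine methyltransferase of eEF1A, rose by 2.11 (0.154 ± 0.544 to 0.762 ± 0.467), and Etf1, the release factor eRF1 that reads stop codons, by 2.00 (0.371 ± 0.247 to 1.54 ± 0.688). Eif2b5, the epsilon subunit of eIF2B, rose by 2.17 but had only 1.58 and 19.1 CPM. By role, 7 of 11 eIF4 genes, 5 of 8 elongation genes, 4 of 6 genes of eIF2 and related factors and 3 of 5 eIF2B genes fell. Of all genes tested, 51.3% fell at this step. The eIF3 genes were mixed, with 3 higher and 4 lower of 14. Under TMM the eIF3 genes had 8 higher and 2 lower, the eIF4 genes 6 and 3, and the elongation genes 3 and 1. Within plate A alone 1 member rose and 25 fell, and within plate B alone 17 rose and 16 fell. The balance of directions of the members at this step thus differed between the 2 sequencing pools. Shares of all genes in these plate fits are not set beside these counts, so they are not read as a trait of the factors.

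From 2c to 8c most factor genes rose. In WT 46 of 61 members rose and 3 fell per spike-in, against 31.9% and 16.2% of all genes, with a median log2 fold change of 1.82 over the members and 0.53 over all genes. Under TMM 31 rose and 6 fell, where 21% and 28.9% of all genes did, and 31 were higher and 3 lower under both scalings, with no called member changing sign. The roles were not alike: 13 of 14 eIF3 genes (median 2.90), 7 of 8 elongation genes (median 3.38), 5 of 6 genes of eIF2 and related factors, 4 of 5 eIF2B genes and 8 of 11 eIF4 genes rose, whereas none of the 4 eIF2 kinase genes passed the test. Under TMM the eIF3 genes had 8 higher and 0 lower and the elongation genes 7 and 1, and 2 kinase genes fell, Eif2ak3 (-1.55) and Eif2ak4 (-1.28). Of the 5 genes grouped under start codon selection, Eif1ad (1.88), Eif5 (1.64) and Eif5b (1.58) rose. Eif1 and Eif1b had log2 fold changes of 0.45 and -0.67 (adjusted p = 0.3823 and 0.147), and under TMM Eif1b fell by 1.47 on the log2 scale.

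The steepest rise was that of Eif3d, an eIF3 subunit that can contact the cap, from 0.342 ± 0.383 to 17.3 ± 7.19 per 1000 spike-in counts (log2 fold change 5.58, SE 0.56, adjusted p = 2.169e-14). In CPM the lowest, median and highest WT libraries were 0, 14.1 and 68.3 at 2c and 249, 461 and 922 at 8c, so the stages did not overlap. Eef2kmt, which methylates eEF2, rose by 5.44 but from near 0 (0.0425 ± 0.110 to 2.22 ± 0.840 per 1000 spike-in counts). Eef1g, a structural subunit of eEF1B, rose by 4.94 (0.978 ± 0.618 to 30.3 ± 9.18), and the eIF3 subunit Eif3l by 4.74 (0.579 ± 0.574 to 15.6 ± 8.93). Eef1g ranged from 25.0 to 98.6 CPM in WT 2c libraries and from 518 to 1202 at 8c, again without overlap. Among the members that rose, the smallest changes were those of the helicase paralog Eif4a2 (0.99) and of Eif4e (1.10).

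Those that fell from 2c to 8c in WT were Eef2k (-2.46), Eif4e3 (-2.80) and Eif5a2 (-2.13). Eif4e3 ranged from 6.93 to 76.2 CPM in WT 2c embryos, and its median at 8c was 0, with a highest library of 10.4 CPM. Eif5a2, the minor paralog of the elongation and termination factor Eif5a, had a mean of 3.52 CPM at 2c and 0.14 CPM at 8c, so its fold change rests on few counts. With plate A alone 31 members rose and 1 fell, and with plate B alone 44 rose and 2 fell, likewise without shares of all genes beside them.

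**Figure D2:**
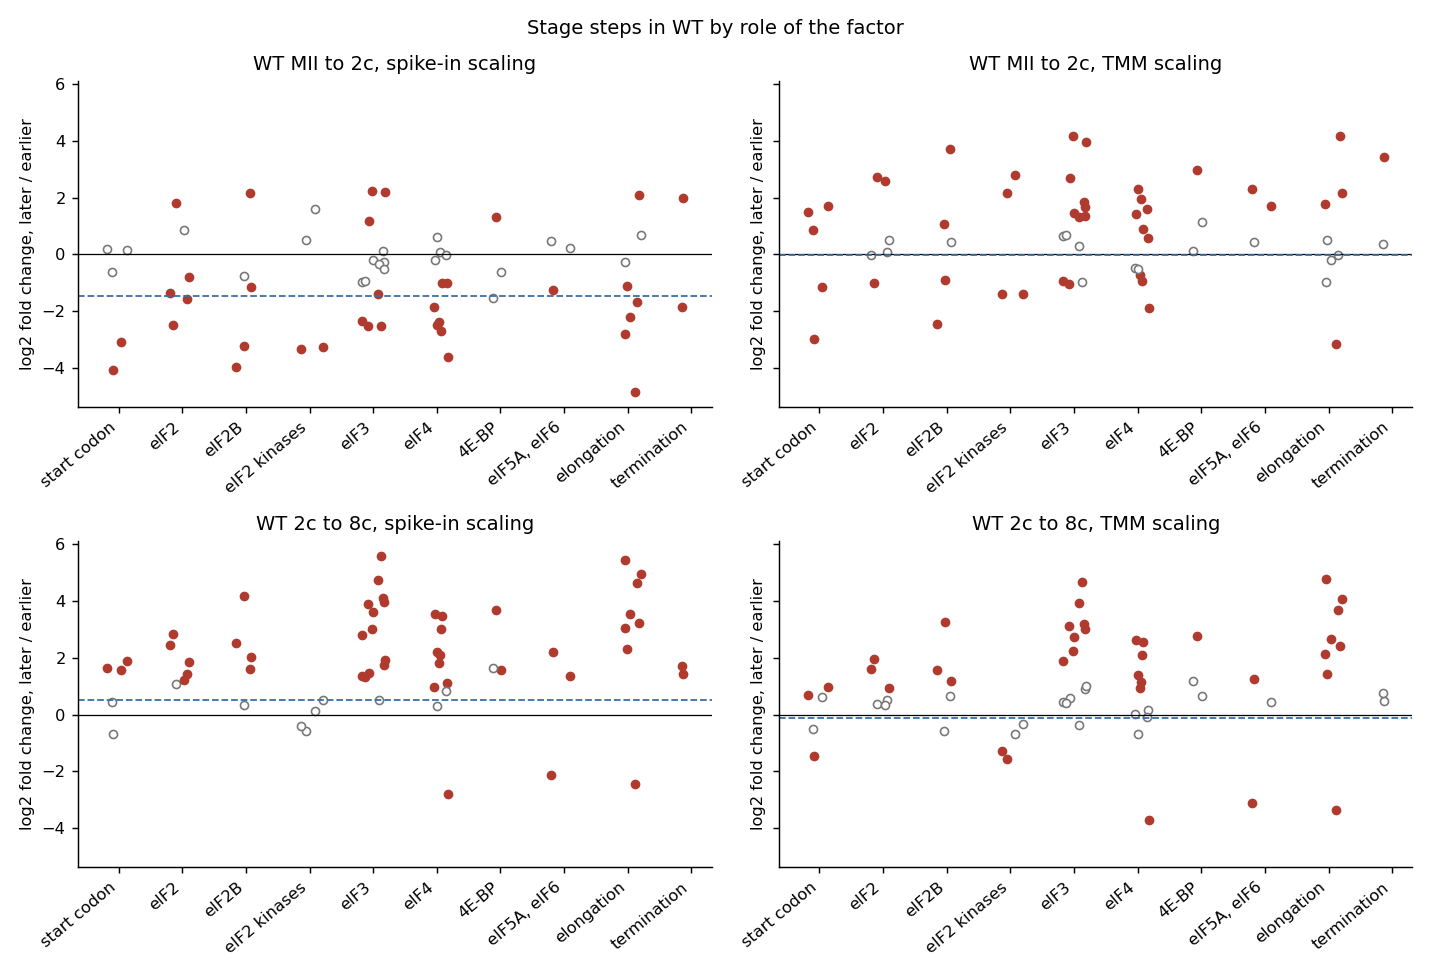
Log2 fold change (later over earlier stage) of each of the 61 tested members in WT, by role, for the steps MII to 2c (upper panels) and 2c to 8c (lower panels), per spike-in RNA on the left and with TMM scaling on the right. Filled red points have an adjusted p under 0.05 and the dashed line is the median of all genes tested. Most members lie below 0 at the first step per spike-in but not with TMM, and at the second step 46 are called higher per spike-in, up to 5.58 for Eif3d.

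The same steps in the matPlag1KO groups gave 4 higher and 36 lower members at the first step (all genes 13.5% and 50.3%) and 45 higher and 3 lower at the second (all genes 29.1% and 19.5%), per spike-in. Under TMM the first step turned to 24 higher and 15 lower (all genes 29.1% and 19.3%), and the second gave 36 and 4 (all genes 21.2% and 30.3%). Per spike-in, all 29 members that fell to 2c in WT also fell in matPlag1KO, 80.6% of the 36 there. Of the 8 that rose in WT, Eif2b5, Eif2s3y, Eif4ebp1 and Etf1 rose in both, 50% of the WT list and 100% of the matPlag1KO list, and Eef1akmt1, Eif3a, Eif3f and Eif3g passed in WT alone. Under TMM these 4 were also called higher in matPlag1KO, at log2 fold changes of 1.25 for Eif3a, 1.46 for Eif3g, 2.44 for Eif3f and above these for Eef1akmt1. From 2c to 8c 43 rises were shared (93.5% and 95.6%), and the 3 falls were of the same genes. Eif3e went the furthest in matPlag1KO, with a log2 fold change of -5.78 to 2c and 6.46 to 8c, where WT had -2.52 and 3.90. Both matPlag1KO values rest on few Eif3e counts at 2c, so their size is uncertain. The lists per spike-in are given side by side. With TMM library sizes, the difference between genotypes in each step was tested per member. It is given below as the genotype effect at 2c against MII or 8c.

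Promoter sequence could be set beside these steps for 48 of the 62 members, in windows from 250 bases before to 50 bases after each start (RefSeq, GRCm38.p6). The ETS-type motif CCGGAAGT, searched on both strands, was found for 9 of 48 members (18.8%), for 7.54% of the 12355 tested genes with a window and for 4.31% of all 27025 genes with one. It was singled out after the steep risers Eif3d and Eif3l were seen to hold it. The lines cover all 9 genes, with 2 sites in Eif5a2, and each gives 30 bases along the gene's own strand with the motif in capitals, which reads ACTTCCGG where it lies on the other strand.
Eif3d, chr15:77970877-77970906, minus strand: agctgtgacacACTTCCGGttgtgtctcac
Eif3l, chr15:79075176-79075205, plus strand: ggctgggcgggACTTCCGGtccggccaagc
Eef1b2, chr1:63176821-63176850, plus strand: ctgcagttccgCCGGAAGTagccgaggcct
Eif4e2, chr1:87213905-87213934, plus strand: tcgccagccaaCCGGAAGTagccgggccct
Eif2b2, chr12:85219486-85219515, plus strand: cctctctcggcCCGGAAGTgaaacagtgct
Eif2ak1, chr5:143817796-143817825, plus strand: gctcttgtgttACTTCCGGcttggggggag
Eif2b4, chr5:31193120-31193149, minus strand: cccagtgcacgCCGGAAGTtgtagtccgct
Eif5a, chr11:69920667-69920696, minus strand: cagccgtagcaCCGGAAGTgttccccattg
Eif5a2 (first site), chr3:28781102-28781131, plus strand: agctctgcacgCCGGAAGTgcactaatccg
Eif5a2 (second site), chr3:28781230-28781259, plus strand: cggggcctatcCCGGAAGTgtggtcgcggc
In WT from 2c to 8c, 6 of the 9 members with the motif rose and 1 fell (median log2 fold change 3.54), and 30 of the 38 tested members without it rose and 1 fell (median 1.73). Since Eif3d and Eif3l drew attention to the motif, the higher median with it is no independent support. The member with the motif that fell was Eif5a2 (-2.13), and those that did not pass were Eif2ak1 (0.53, adjusted p = 0.4234) and Eif2b4 (0.33, adjusted p = 0.6748). The first base of the motif lay 71 bases before the start in Eif3d, 55 in Eif5a, 36 in Eif3l, 164 and 36 in Eif5a2, and within the first 17 bases after it in the other 5.

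CACGTG, the E-box, was likewise at a higher share in the members: it was found for 12 of 48 members (25%) against 11% of tested genes, AAGATGGC (YY1) for 5 (10.4%) against 4.68%, and TATAAA for 5 (10.4%) against 9.87%. The cyclic AMP element TGACGTCA was found for 1 member, Eef2 (2.08% against 3.25%), and the NRF1 motif for 1, Eif3k (2.08% against 1.97%). A match to the PLAG1 consensus, with its core, a spacer and its cluster, was found for 14 members (29.2%) against 30% of tested genes. From 2c to 8c in WT, 9 of 12 members with the E-box rose and 2 fell (median 2.02) against 27 and 0 of 35 without it (1.76), and 9 of 14 with the PLAG1 match rose and 2 fell (median 1.64) against 27 and 0 of 33 (1.86). Eif5a and Eif5a2 hold both CACGTG and CCGGAAGT. A match is a string of letters, and no match says only that these letters are not in the window.

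At 2c the genotypes differed in 8 factor genes, and 7 of them were lower in embryos labelled matPlag1KO. The share called lower was 2.62% of all genes tested and the share called higher 2.3%, against 7 and 1 of 61 members. The 7 lower genes were 4 eIF3 subunits (Eif3e, Eif3g, Eif3a and Eif3k), the alpha and beta subunits of eIF2 (Eif2s1 and Eif2s2), and Eef1akmt1. The single higher gene was Eif4e3. Over the 61 members the median log2 fold change (matPlag1KO against WT) was -0.25 and 41 were negative, and over all genes the median was 0.12.

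**Figure D3:**
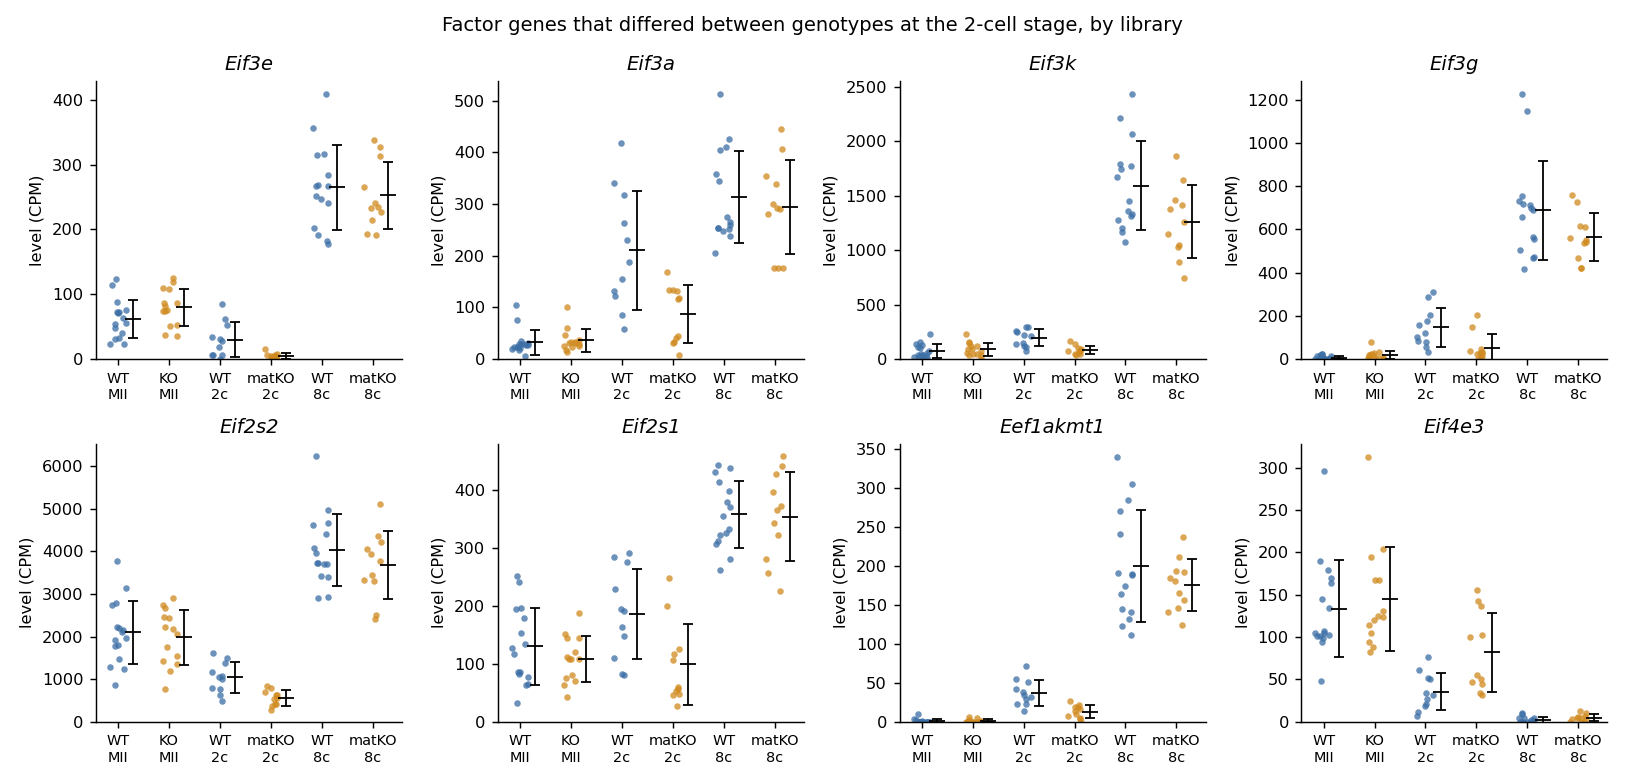
Level (CPM, linear axis from 0) of the 8 members called between the genotypes at 2c, in each library of the 6 groups, with the group mean and SD, where matKO stands for matPlag1KO. For Eif3e all 11 matPlag1KO 2c libraries lie at or below 15.4 CPM and under the WT 2c median of 27.3 CPM, and in each of the 8 genes the 2c groups overlap.

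Eif3e, a subunit of eIF3 on mm9 chr15:43081586-43114282, minus strand, differed most. Its lowest, median and highest CPM were 0, 27.3 and 85.2 in the 11 WT embryos and 0, 4.08 and 15.4 in the 11 matPlag1KO embryos. The median library total of these matPlag1KO embryos was 163626 gene counts. Their Eif3e levels thus rest on few counts, and the size of the fold change is uncertain. Every matPlag1KO embryo lay below the WT median, and 7 WT embryos lay above the highest matPlag1KO embryo. The log2 fold change was -2.74 (SE 0.46, adjusted p = 0.0001345). Plate A alone gave means of 25.9 ± 26.7 (n = 4) and 4.54 ± 3.15 CPM (n = 5), and plate B alone 31.9 ± 29.3 (n = 7) and 4.78 ± 5.67 (n = 6). Eif3e remained called when any of the 22 libraries was left out, with a log2 fold change from -2.99 to -2.44.

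Eif3a, the largest subunit of eIF3 (chr19:60837019-60866596, minus strand), had a median of 187 CPM in WT (57.5 to 419) and of 115 CPM in matPlag1KO (7.97 to 169). The groups overlapped, at means of 210 ± 115 and 87.2 ± 55.7 CPM (log2 fold change -1.28, adjusted p = 0.01459). Eif3k (chr7:29756391-29766907, minus strand) ranged from 76.2 to 298 CPM in WT and from 35.7 to 167 in matPlag1KO (log2 fold change -1.25, adjusted p = 0.02248). Both kept the call without any of the 22 libraries. Eif3g, an RNA-binding subunit (chr9:20698793-20703034, minus strand), had medians of 119 and 30.1 CPM, with ranges of 34.5 to 312 and 0 to 203 (log2 fold change -1.52, adjusted p = 0.0426). Its call held in 8 of the 22 refits that leave out 1 library, and its log2 fold change was -0.66 with plate A alone (adjusted p = 0.7658) and -2.58 with plate B alone (0.0009803).

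The remaining 10 of 14 eIF3 genes did not pass, and the median over all 14 was -0.85. The nearest to the threshold were Eif3m (log2 fold change -1.48, adjusted p = 0.05954), Eif3f (-1.78, 0.07896) and Eif3c (-1.18, 0.1146), while Eif3b, Eif3d, Eif3l, Eif3j1 and Eif3j2 had positive values, at most 0.46. The 13 eIF3 genes summed to 1570 ± 486 CPM in WT and 877 ± 418 in matPlag1KO 2c embryos.

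Eif2s2 (chr2:154697146-154718642, minus strand) went from a WT median of 1057 CPM (477 to 1609) to 552 (268 to 830) in matPlag1KO, a log2 fold change of -0.90 (SE 0.23, adjusted p = 0.01293), and its call held without any of the 22 libraries. Eif2s1, the subunit that the eIF2 kinases phosphorylate (chr12:79963059-79987997, plus strand), had medians of 191 and 59.9 CPM and ranges of 80.4 to 292 and 27.3 to 248. Its log2 fold change was -0.93 (adjusted p = 0.04863), and the call held in 8 of the 22 refits. With plate as a term it was -0.86 (adjusted p = 0.0648), and it was -0.45 with plate A alone and -1.51 with plate B alone. The gamma subunit gene Eif2s3x was at 81.1 ± 34.6 and 76.3 ± 35.9 CPM, with a log2 fold change of -0.08 (adjusted p = 0.9673). No eIF2B gene and no kinase gene passed.

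Eef1akmt1 (chr14:58168435-58190406, minus strand) was at 37.3 ± 16.6 CPM in WT and 12.9 ± 8.37 in matPlag1KO (log2 fold change -1.50, adjusted p = 0.04112). The elongation factors that carry out the cycle did not pass: the log2 fold change was -0.66 (adjusted p = 0.1829) for Eef1a1, and the others were Eef1d -0.90 (0.124), Eef1b2 0.11 (0.9192) and Eef2 0.47 (0.5261). Eif4e3 (chr6:99575131-99616765, minus strand) was the only member called higher, with ranges of 6.93 to 76.2 CPM in WT and 31.9 to 155 in matPlag1KO. All 11 matPlag1KO embryos lay above the WT median of 31.2 CPM (log2 fold change 1.19, adjusted p = 0.04859). The calls of Eef1akmt1 and Eif4e3 held in 11 and 8 of the 22 refits, and Eif4e3 had 0.36 with plate A alone and 1.72 with plate B alone.

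Other measures moved with genotype at 2c. Oocyte markers (7 of 7 with counts) summed to a median of 1053 CPM in WT (811 to 2052) and 1786 in matPlag1KO (778 to 5964), 2-cell markers (3 of 6 with counts) to 190 (78.1 to 976) and 401 (162 to 579), and 8-cell markers to 134 (63.2 to 345, 5 of 6 with counts) and 101 (7.97 to 310, 6 of 6). Their part in the differences was not tested. On spike-in scaling, where the median of all genes was 0.28, 1 of the 8 members stayed called (Eif3e) and all 8 kept their sign, and with plate A alone none was called. Leaving out 1 library gave between 4 and 11 called members, and 4 or 5 without WT replicate 6, 8, 9, 10 or 12 or matPlag1KO replicate 1, 2, 8, 11, 12 or 14. Shares of all genes called in these fits are not set beside these counts.

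The difference between the 2 stages in the genotype effect was tested directly. Against MII, 6 members had a more negative effect at 2c and none a more positive one, where 1.68% and 1.62% of all genes did: Eif3e (-3.09 on the log2 scale, adjusted p = 6.859e-05), Eif3g (-2.71, 0.006776), Eif3m (-2.06, 0.04447), Eef1d (-1.64, 0.03377), Eif3k (-1.51, 0.03882) and Eif3a (-1.43, 0.04894). Thus 5 of the 6 are eIF3 genes. Such a difference also takes in the effect at MII. With plate A and plate B alone, the MII effect was 1.17 and 2.34 for Eif3g, and 0.10 and 1.60 for Eif3m. It was 0.25 and 0.46 for Eif3k, and 0.78 and -0.50 for Eif3a. Eif3g was at 12.4 and 1.06 CPM in the WT oocytes of these plates. Eef1d, an exchange subunit of eEF1B, passed neither comparison alone, with 0.74 at MII and -0.90 at 2c. Against 8c only Eif3e passed (-2.67, adjusted p = 0.002745), where 1.13% of all genes had a more negative and 1.17% a more positive effect. The MII and 8c effects of Eif3e were 0.35 and -0.07.

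In oocytes the genotypes differed at 1 factor locus. Eif3j1 and Eif3j2 both passed, lower in matPlag1KO, against 0.472% of all genes lower and 0.309% higher, and no member was higher. The 2 records cover nearly the same bases (mm9 chr2:121854316-121879368 and chr2:121854319-121879367, plus strand), their counts were equal in 73 of 78 libraries, and they are 1 measurement of a loosely held eIF3 subunit. Eif3j1 had a median of 26.4 CPM in the 16 WT oocytes (6.96 to 40.8) and of 6.53 CPM in the 14 matPlag1KO oocytes (1.84 to 15.6). All 14 lay below the WT median, and 11 WT oocytes lay above the highest of them. The log2 fold change was -1.52 (SE 0.36, adjusted p = 0.01212), and with plate A or B alone it was -1.92 and -1.04 (adjusted p = 0.08559 and 0.2537). Oocyte markers (7 of 7 with counts) summed to medians of 3723 CPM in WT oocytes (1839 to 17389) and 9507 in matPlag1KO oocytes (2068 to 14601), and their part was not tested. At 2c and 8c the log2 fold change of Eif3j1 was 0.05 and -0.50 (adjusted p = 0.9959 and 0.5524). The test of the difference between 2c and MII gave 1.57 (adjusted p = 0.08667).

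Oocytes in the same well of the 2 plates, 1 of each genotype, deviated together from their group means, and a fit with the well as a replicate block called 12 members at MII in place of 2, with 3.99% of all genes higher and 0.915% lower in the same fit. In that fit 9 were higher in matPlag1KO: Eif3g (1.66), Eif2b4 (1.49), Eif3c (1.46), Eif3m (1.18), Eef1d (0.84), Eif4g3 (0.77), Eif4h (0.71), Eef2k (0.55) and Eef1a1 (0.40). Lower were Eif1b (-0.62), Eif3j1 and Eif3j2. The p-values of this fit equal those of a normal distribution for the log2 fold change over its SE. It thus allowed no uncertainty in the spread of single genes, and the added calls carry this limit. On spike-in scaling, where the median of all genes was 0.30, no member passed.

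At 8c no member passed in edgeR, where 0.527% of all genes were lower and 1.21% higher in matPlag1KO. An unadjusted p under 0.05 was reached by 7 of 61 members and by 2363 of all 16511 genes tested. DESeq2 called 1 member, without a share of all genes set beside it. The median was -0.19 over the members and 0 over all genes, with 44 of 61 negative. Nearest to the threshold were Eef2k, at 5.17 ± 5.19 CPM in WT and 19.3 ± 37.5 in matPlag1KO (log2 fold change 1.86, adjusted p = 0.07148), and Eif4ebp1, at 97.2 ± 57.3 and 39.9 ± 26.6 CPM (-1.28, adjusted p = 0.07223). The 8-cell markers (6 of 6 with counts) summed to medians of 634 CPM in WT (205 to 1159) and 313 in matPlag1KO (198 to 931), and their part was not tested.

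**Figure D4:**
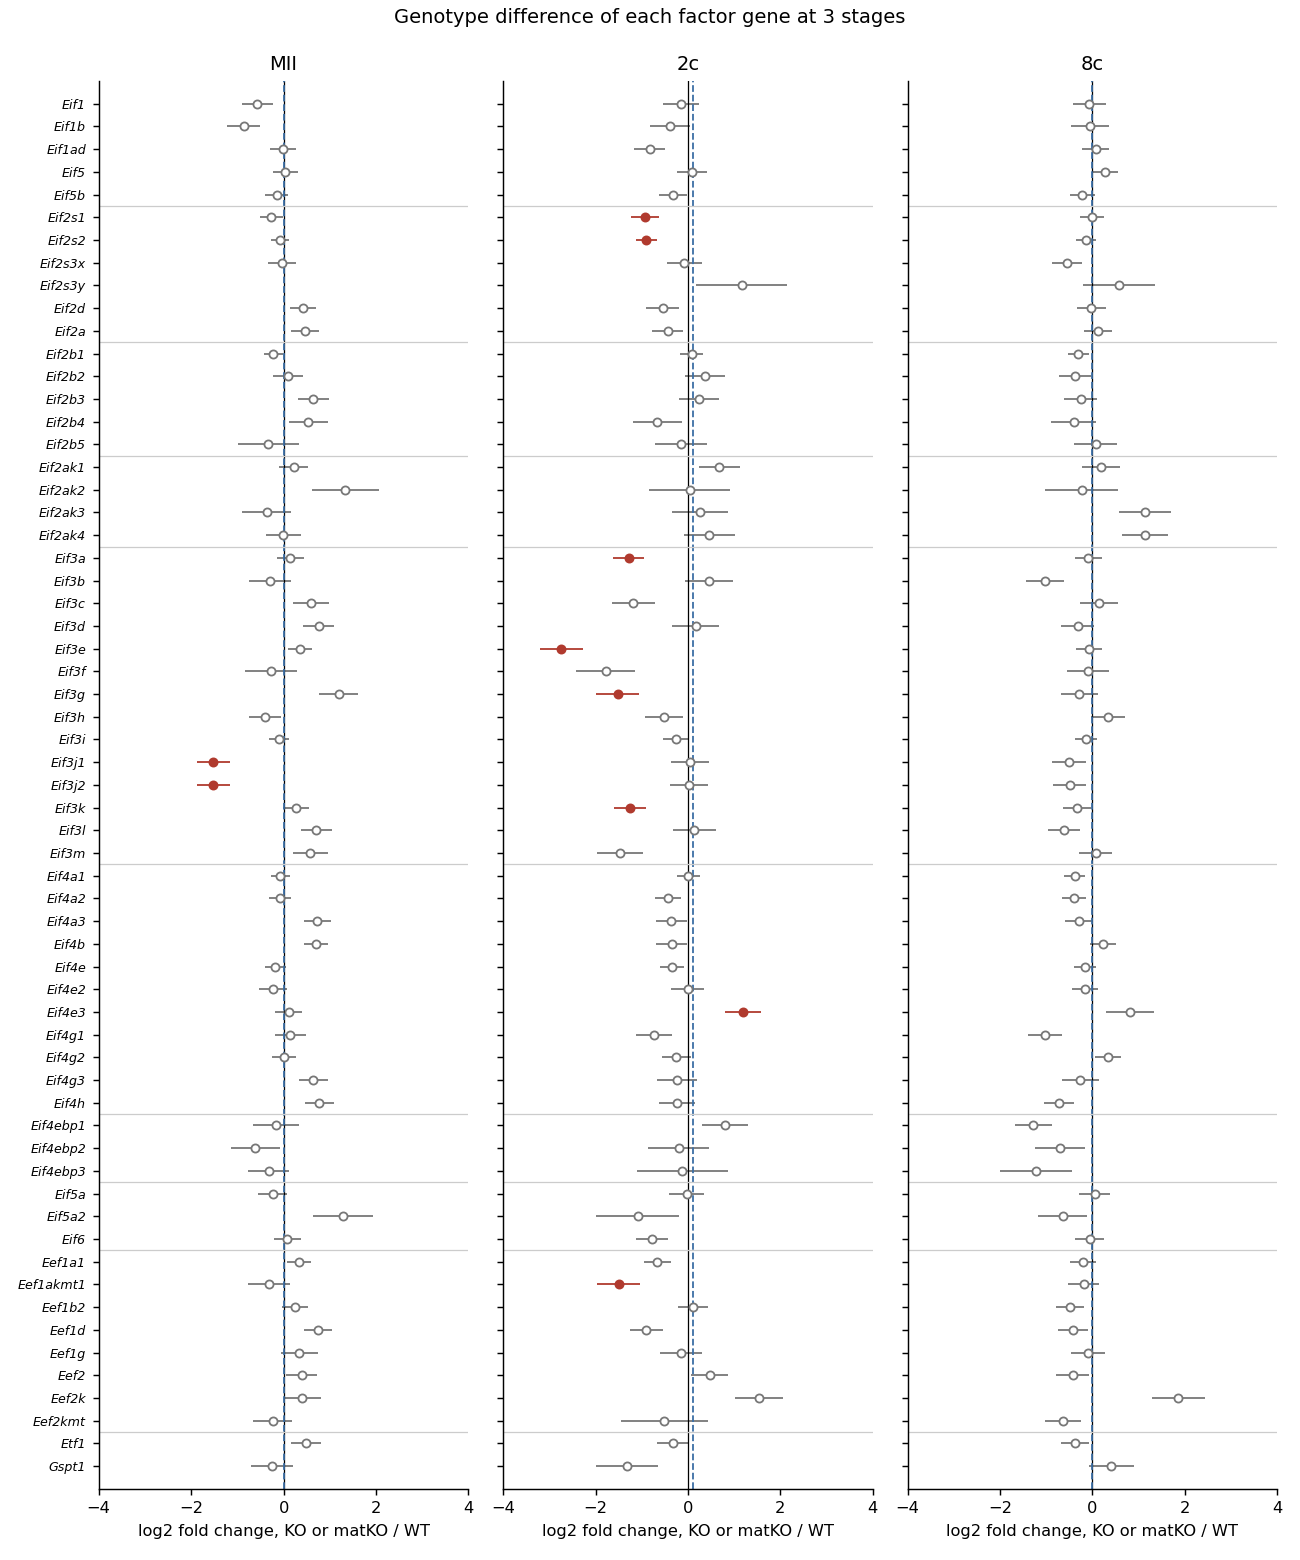
Log2 fold change (matPlag1KO against WT, TMM scaling) of the tested members at MII, 2c and 8c in order of role, with bars of 1 SE, filled red points for an adjusted p under 0.05 and a dashed line at the median of all genes. Eif2s3y is left out at MII, where it had no counts. The eIF3 points at 2c reach down to -2.74 (Eif3e) around a median of -0.85, and no point is filled at 8c.

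Within several paralog pairs and trios the leading gene or its share differed between stages. Eif1b took 84.5 ± 17.1% of the Eif1 and Eif1b counts of a WT oocyte, 36.7 ± 14.0% at 2c and 23.7 ± 15.6% at 8c, and matPlag1KO means were 85.9%, 29.1% and 24.0%. Among the cap-binding genes, the share of Eif4e3 went from 21.8 ± 8.19% to 4.32 ± 2.75% and 0.217 ± 0.320% in WT, while that of Eif4e2, a cap binder known for repressing translation, went from 2.51 ± 1.70% to 4.65 ± 2.12% and 23.7 ± 9.69%. In matPlag1KO 2c embryos Eif4e3 stood at 11.5 ± 6.61%, from 5.00% to 23.5%, against 1.02% to 8.85% in WT. Eif4e itself kept the largest share in every group, from 71.9% to 91.0% on average.

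Of the scaffold genes, Eif4g3 held 24.8 ± 11.9% in WT oocytes, 5.82 ± 2.45% at 2c and 2.88 ± 2.08% at 8c. Eif4g1 took 33.6 ± 16.3%, 48.3 ± 10.0% and 65.6 ± 14.8%, and in matPlag1KO 31.9 ± 14.4%, 39.0 ± 10.8% and 51.4 ± 14.6%, ranges that overlapped with WT at each stage. Eif4g2, a related scaffold that lacks the Eif4e-binding site, took 41.7 ± 13.5%, 45.8 ± 10.3% and 31.5 ± 14.3% in WT and 35.5 ± 12.2%, 53.4 ± 9.74% and 45.9 ± 15.1% in matPlag1KO, so it had the highest mean share of the 3 in both oocyte groups and in matPlag1KO 2c embryos. Eif4a2 held 21.5 ± 8.03% of the Eif4a1 and Eif4a2 counts in WT oocytes, 25.9 ± 6.45% at 2c and 8.74 ± 4.36% at 8c. Eef1a1 and Eif5a were nearly alone in their pairs, with mean shares of at least 99.91% and 98.96%. Several of these genes, Eef1a1 among them, have near-identical processed copies in the genome, and how reads that fit several places were counted is not given in the sources used here, so their levels are uncertain to that extent. The tissue-restricted Eef1a2 had 3 counts in all, 2 in matPlag1KO 2c and 1 in matPlag1KO 8c embryos. Eif2s3y, the Y-linked copy of the eIF2 gamma subunit gene, had no count in any of the 30 oocytes, and 3 and 9 pooled counts at 2c and 13 and 12 at 8c in WT and matPlag1KO.

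**Figure D5:**
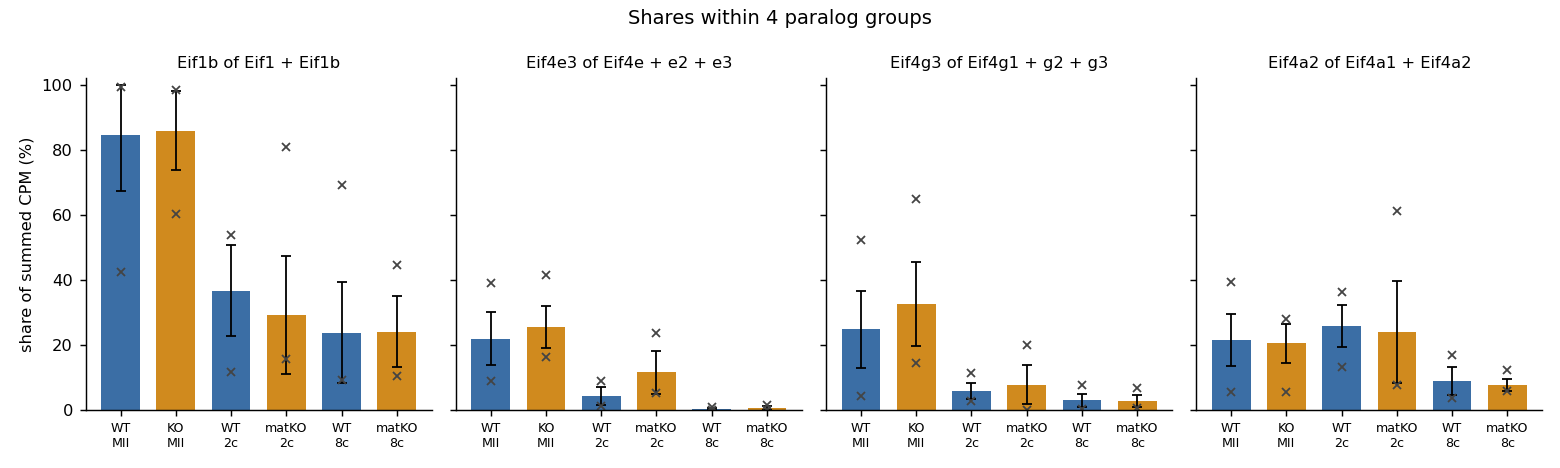
Mean share (percent of the summed CPM of the paralog set, linear axis from 0) of Eif1b, Eif4e3, Eif4g3 and Eif4a2 in the 6 groups, with SD bars clipped at 0 and 100% and crosses at the lowest and highest library. The share of Eif1b goes from 84.5% in WT oocytes to 23.7% at 8c and that of Eif4e3 from 21.8% to 0.217%, in the same order in the matPlag1KO groups.

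Of the kinase genes, Eif2ak1, Eif2ak4 and Eef2k were highest in WT oocytes, Eif2ak3 was highest at 2c and Eif2ak2 was scarce. Eif2ak1, the heme-regulated eIF2 kinase, was at 45.6 ± 25.3, 17.1 ± 17.8 and 13.4 ± 9.20 CPM over the WT stages, and Eif2ak4, the kinase that senses uncharged tRNA, at 34.6 ± 23.1, 12.9 ± 10.2 and 5.05 ± 4.86. Both fell to 2c (log2 fold change -3.27 and -3.34), and neither passed per spike-in from 2c to 8c. Eif2ak3, the kinase of the endoplasmic reticulum, stood at 2.87, 14.9 and 4.75 CPM. Eif2ak2, the kinase activated by double-stranded RNA, had at most 3.73 CPM on average in any group. Neither was called per spike-in at either step, but under TMM Eif2ak3 (2.17) and Eif2ak2 (2.80) were called higher from MII to 2c in WT. Eef2k went from 510 ± 455 to 56.9 ± 54.5 and 5.17 ± 5.19 CPM in WT and from 676 ± 518 to 162 ± 146 and 19.3 ± 37.5 in matPlag1KO. Its genotype effect at 2c was 1.53 (adjusted p = 0.06385).

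The 4E-binding proteins hold Eif4e away from the scaffold. Eif4ebp1 rose at both WT steps (1.32 and 3.67), from 1.24 ± 1.82 CPM in oocytes to 13.9 ± 14.2 and 97.2 ± 57.3, and in matPlag1KO it went from 1.33 ± 1.80 to 24.1 ± 14.7 and 39.9 ± 26.6. The test of the difference in its genotype effect between 2c and 8c gave 2.08 (adjusted p = 0.05906). Eif4ebp2 was at 6.19, 13.6 and 21.6 CPM in WT and rose to 8c (1.58, adjusted p = 0.04718), and Eif4ebp3 stayed at or under 1.37 CPM in every group.

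There are 10 members known to carry a terminal oligopyrimidine tract, the 5′ element through which mTOR controls the translation of ribosomal and elongation factor mRNAs: Eef1a1, Eef1b2, Eef1d, Eef1g, Eef2, Eif3a, Eif3e, Eif3f, Eif3h and Eif4b. Of these 10, 9 rose from 2c to 8c in WT and 10 in matPlag1KO, against 31.9% and 29.1% of all genes. At 2c, 2 of 10 were lower in matPlag1KO (Eif3a and Eif3e, median -0.59), where 2.62% of all genes were. In the test of 2c against MII 3 of 10 had a more negative effect (Eef1d, Eif3a and Eif3e), against 1.68% of all genes. Of 34 other genes that act on translation, 15 rose and 4 fell from 2c to 8c in WT, against 31.9% and 16.2% of all genes. Between genotypes at 2c 3 passed, 1 higher and 2 lower, against 2.3% and 2.62% of all genes. Paip1, which binds the poly(A)-binding protein, was higher (26.1 ± 16.4 and 68.7 ± 49.5 CPM, log2 fold change 1.40, adjusted p = 0.04288). Denr, a recycling and reinitiation factor (-1.36, adjusted p = 0.03183), and Trmt112, a partner of methyltransferases including the one for eRF1 (-1.11, adjusted p = 0.003927), were lower.

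In the test of 2c against MII, 2 of the 34 passed with a more negative effect, against 1.68% of all genes. They were Rps6, a protein of the small ribosomal subunit (-2.34, adjusted p = 0.004999), and Dhps, which makes the hypusine of eIF5A (-2.66, adjusted p = 0.02678). Over the 6 group means of log2 CPM, the members whose levels were most like those of Eef1a1 were Eif3m (Pearson's r = 0.997), Eif3k (0.994), Eif4h (0.990), Eef1d (0.977) and Eef1b2 (0.972), and the least like were Eif4e3 (-0.974) and Eef2k (-0.924). These 6 points share their libraries and scaling between genes, and the values describe likeness only.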

How the data were processed

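The authors sequenced single oocytes and embryos from transcript 5′ ends in 2 pools, called plates A and B here, counting molecules by their identifiers and adding ERCC spike-in RNA. Reads were mapped with TopHat to mm9 and counted over UCSC genes with HOMER. The deposited values are raw counts per gene and for 92 spike-in RNAs, without normalization. The PLAG1 consensus search and all promoter letters used RefSeq GRCm38.p6 windows, and no mm9 coordinates were converted.

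Of 90 libraries, 12 had a median CPM under 1 and were not used. A gene was tested if 5 or more kept libraries reached 1 CPM. The 6 groups were fitted together in edgeR 4.0.16 (R 4.3.3, limma 3.58.1) with the quasi-likelihood test, and calls were made at a Benjamini-Hochberg adjusted p under 0.05 over all 16511 genes. Genotypes were compared with TMM library sizes, and stages with spike-in totals as library sizes. CPM used TMM library sizes, and 1 was added before log2 group means. Spike-in totals of the kept libraries ran from 6645 to 15428. Depth limits the scarce members, where few counts set a value, and counts cover counting error only. No kept library was a copy of another of its group (lowest chi-square per degree of freedom 3.54). Steps were tested on simulated data.

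The members, role groups and lists were chosen with earlier results of these data known. Named members are those called between genotypes at 20 CPM or more, the 4 highest and 4 lowest called members of each WT step at that level, the 5 highest per WT stage, the paralog sets and the regulators. Members named for lying near the threshold, or called only by the fit with wells, were chosen after their values were seen.

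Oocytes of opposite genotype shared a well position in the 2 plates. Over 8418 genes, deviations from the mean of group and plate correlated above 0.1 in each of the 14 pairs (lowest 0.148, median 0.424), and 13 of 14 correlated best with their own well, so the well was taken as a replicate block in an alternative. With deviations from the group mean alone the lowest was -0.0562. Alternatives also covered the libraries left out, the gene filter, plates, scaling, the groups in the fit and DESeq2 1.42.0, and leaving out each 2c library was added after the data were seen.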

Additional observations from a re-analysis of the deposited data

Results flagged for a closer look

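The genotype effect (matPlag1KO against WT, log2 scale) of 6 members differed between 2c and MII in the interaction test of edgeR. The differences, 2c minus MII, were -3.09 for Eif3e, -2.71 for Eif3g, -2.06 for Eif3m, -1.64 for Eef1d, -1.51 for Eif3k and -1.43 for Eif3a. Eif3e also differed between 2c and 8c, by -2.67.

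Alternatives did not reverse any of the 7. Eif3e lost both of its calls only with plate A alone, as did Eif3g its call, with adjusted p up to 0.13, 0.406 and 0.373. Eif3a was called in 2 of 8 alternatives, with adjusted p from 0.0365 to 0.369. Eif3m and Eef1d were called in 4 of 8 and Eif3k in 5 of 8.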

How the results depend on the processing

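At MII the 2 called members became 12, both included, once the well entered as a replicate block. They became 0 with plate A alone or spike-in scaling. With plate B alone 4 others were called and neither of the 2. At 2c the 8 became 5 with the left-out libraries kept, 1 with spike-in scaling and 0 with plate A alone, and leaving out 1 library gave 4 to 11. At 8c the 0 became 1 with the 2 groups alone and 1 with DESeq2. From 2c to 8c in WT the 49 became 32 with plate A alone. For the difference between 2c and MII the 6 became 3 with the left-out libraries kept, 2 with spike-in scaling and 0 with plate A alone, and for 2c against 8c the 1 became 2 with plate B alone, median-ratio scaling or DESeq2 and 0 with plate A alone. In the well fit 3.99% of all genes were higher and 0.915% lower. Shares for the other fits are not set beside these counts, so the changes are not read as a trait of the factors. Fewer libraries enter a plate alone. The other causes were not tested. Among the genotype calls of the report, none changed sign in an alternative, and Eif2s1 at 2c also lost its call with plate as a term.

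Well pairing was used at MII only. At 2c and 8c no block was used, since the labels tie no libraries of the 2 genotypes to a shared female or culture. The 2c libraries were the shallowest, and members with a few counts, such as Eif5a2, Eif2s3y and Eef1a2, allow no firm fold change. Eif3e had few counts in matPlag1KO 2c embryos, so the size of its changes there is uncertain as well.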
